A study of Homo sapiens with 6 samples.

Results

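The CDK inhibitor family was examined in the MACE-Seq data as 8 genes of the deposited count table, chosen by name among 35410 listed genes: CDKN1A, CDKN1B and CDKN1C (CIP/KIP inhibitors), CDKN2A, CDKN2B, CDKN2C and CDKN2D (INK4 inhibitors), and CDKN3. In MACE-Seq, only the 3′ end of each polyadenylated transcript is sequenced and counted. The 6 libraries are 3 biological replicates each of SEM::mock, transfected with an empty vector, and SEM::EGR3, transfected with an EGR3 overexpression vector. SEM, an established cell line from a human proB leukemia, carries KMT2A::AFF1, and all 6 cultures received 1 µg/mL doxycycline for 48 h before RNA was taken, the controls included. Each group is 1 modified line with a doxycycline-inducible vector, and the sources used here do not say whether either line is a clone. A difference between the groups therefore combines EGR3 induction with any other difference between the lines, and these cannot be told apart.

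CDK inhibitors are small proteins that restrain the cyclin-dependent kinases, which drive cells through the division cycle. INK4 proteins bind CDK4 and CDK6 and keep D-type cyclins from activating them, so that RB stays unphosphorylated and holds E2F factors inactive. CIP/KIP proteins bind cyclin and kinase together and act mainly on CDK2 complexes, while CDKN3 is a phosphatase that removes the activating phosphate from CDK2. CDKN2A also encodes the unrelated protein ARF from another first exon, and ARF blocks the ubiquitin ligase MDM2. Loss of the CDKN2A and CDKN2B locus is a frequent lesion of lymphoid leukemia.

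Counts summed to between 5286115 and 6181388 in the SEM::mock libraries and between 7293092 and 15106018 in the SEM::EGR3 libraries. Levels below are CPM, counts per 1000000 listed counts after TMM scaling, and changes are log2 fold changes of SEM::EGR3 against SEM::mock. They were tested with the quasi-likelihood test of edgeR and called at an adjusted p-value under 0.05 over 15465 tested genes. EGR3 itself was counted 8, 10 and 6 times in SEM::mock and 9768, 4952 and 5557 times in SEM::EGR3. The labels describe all 6 libraries as proB cells, and the markers of that identity differed between the lines. Of 18 B-lineage markers, 13 had at most 3 counts in each SEM::mock library, against 3 in SEM::EGR3. EBF1, IGHM, BLK, BLNK, RAG2 and DNTT were at 0 in SEM::mock. Of these, BLNK, RAG2 and DNTT also had at most 3 counts in each SEM::EGR3 library, so they do not separate the lines. The summed level of the 18 markers was 136 to 160 CPM in SEM::mock, most of it from CD24 (143 ± 11.2 CPM, SD, n = 3), and 767 to 795 CPM in SEM::EGR3. CD24 itself went the other way and had 23.4 ± 0.528 CPM in SEM::EGR3. Of 17 genes of the KMT2A fusion program, 7 had at most 3 counts in each SEM::mock library, with HOXA6 and HOXA7 at 0. HOXA6 also had at most 1 count in each SEM::EGR3 library. The summed level of the 17 genes was 217 to 236 CPM in SEM::mock against 1444 to 1514 CPM in SEM::EGR3. MYB of this list went the other way, at 113 ± 2.58 CPM in SEM::mock and 54.55 ± 2.70 CPM in SEM::EGR3 (SD, n = 3 each). In contrast, 19 erythroid markers summed to 5171 to 5465 CPM in SEM::mock and 6244 to 6492 CPM in SEM::EGR3, with HBG2, whose reads its near-identical copy HBG1 can share, at 2333 ± 38.1 CPM in SEM::mock and HBZ at 2108 ± 92.9 CPM in SEM::EGR3 (SD, n = 3 each). AHSP and EPB42 were at 0 in SEM::mock and HBB was at 0 in SEM::EGR3. In the other line these genes had at most 3 counts in each library, so they do not separate the lines. The listed megakaryocyte markers summed to 19.1 to 21.7 CPM in SEM::mock and 21.2 to 22.4 CPM in SEM::EGR3, the myeloid markers to 383 to 395 and 231 to 233 CPM, and the T cell markers to 87.5 to 100.2 and 137 to 149 CPM. Within the myeloid list, mean CEBPA rose from 12.35 CPM in SEM::mock to 126 CPM in SEM::EGR3. Mean LYZ fell from 154 to 42.6 CPM and mean CD33 from 123.5 to 47.9 CPM. Single T cell markers also moved in opposite directions, with CD3D at 57.9 and 6.24 CPM and TRBC1 at 31.8 and 1.70 CPM, but TRAC at 1.20 and 74.4 CPM and LCK at 0.130 and 52.0 CPM (means of SEM::mock and SEM::EGR3). GP9, VWF, MPO, CTSG and CD7 of these lists were at 0 in SEM::mock. They were low in SEM::EGR3 as well, with at most 30 counts in any library, and CD7 had 3, 1 and 4. The SEM::mock libraries thus go against their proB label. The SEM::EGR3 libraries hold B-lineage and erythroid transcripts together (HBA1 at 1491 ± 35.3 and HBA2 at 1076 ± 58.4 CPM, near-identical copies that can share reads), so they also go against a label of proB cells alone. Whether either line holds 1 kind of cell, or the same kind as the other, cannot be told from bulk RNA, and each level below is an average over whatever cells were present. The part of these differences in the results below was not tested, and no comparison is left without the SEM::mock libraries.

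The promoters of the INK4 genes with the largest differences, and of CDKN2B next to CDKN2A, are shown to make their starts and the separation of the CDKN2A starts visible. Each runs from 250 bases before to 50 bases after a RefSeq start (GRCh38.p14), 5′ to 3′ on the strand of the gene. Capitals mark matches to the EGR core letters GCGNGGGCG on either strand, where N is any base.
CDKN2A, upstream start (ARF), chr9:21995275-21995574, minus strand: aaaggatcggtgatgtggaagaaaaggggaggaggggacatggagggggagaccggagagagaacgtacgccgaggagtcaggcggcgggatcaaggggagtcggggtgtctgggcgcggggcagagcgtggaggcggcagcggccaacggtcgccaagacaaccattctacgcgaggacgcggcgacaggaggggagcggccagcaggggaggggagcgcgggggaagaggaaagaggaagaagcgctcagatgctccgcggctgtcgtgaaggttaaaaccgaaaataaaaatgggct
CDKN2A, downstream start (p16INK4a), chr9:21974808-21975107, minus strand: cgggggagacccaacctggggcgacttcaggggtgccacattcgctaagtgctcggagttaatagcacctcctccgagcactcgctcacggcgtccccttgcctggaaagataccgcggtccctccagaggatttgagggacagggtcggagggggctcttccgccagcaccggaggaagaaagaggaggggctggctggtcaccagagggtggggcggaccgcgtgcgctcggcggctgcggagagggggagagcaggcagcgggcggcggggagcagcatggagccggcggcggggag
CDKN2B, chr9:22009256-22009555, minus strand: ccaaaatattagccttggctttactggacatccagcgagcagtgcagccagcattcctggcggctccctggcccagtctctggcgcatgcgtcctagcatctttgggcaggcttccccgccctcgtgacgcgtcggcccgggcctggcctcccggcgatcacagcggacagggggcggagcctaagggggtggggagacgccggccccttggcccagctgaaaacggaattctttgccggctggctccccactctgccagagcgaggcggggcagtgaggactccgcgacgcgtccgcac
CDKN2C, middle of 3 starts, chr1:50968456-50968755, plus strand: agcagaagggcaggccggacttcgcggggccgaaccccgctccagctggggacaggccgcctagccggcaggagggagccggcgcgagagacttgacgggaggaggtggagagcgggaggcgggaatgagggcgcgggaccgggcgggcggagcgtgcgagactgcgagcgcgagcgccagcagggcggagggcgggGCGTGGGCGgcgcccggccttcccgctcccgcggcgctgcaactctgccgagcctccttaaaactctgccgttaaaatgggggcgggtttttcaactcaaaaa
The RefSeq table held 10 promoters for 7 of the 8 members, with CDKN1C missing from it. Of these 10, only the CDKN2C promoter shown held the EGR letters, beginning 53 bases before the start, and 1 of its 6 GC boxes (GGGCGG, either strand) overlapped them. The same letters were found in 9.43% of 35116 promoters of this length, and GC boxes in 45.0%. A match describes the letters only and is no evidence of binding.

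Of the 8 members, 7 passed the expression filter and CDKN2B did not. CDKN2A passed it through its SEM::EGR3 counts alone and therefore had to differ, and it is left out of the counts that follow. Of the other 6, 4 were higher in SEM::EGR3, 1 was lower and 1 did not pass the threshold. Of all tested genes, 36.5% were higher and 32.0% lower, 68.5% together, so that calls were common in this comparison. In 5 of the 6 the libraries of the lines did not overlap, which held for 70.1% of all tested genes. An increase by a log2 fold change of at least 1 was called for CDKN2C and CDKN3, and for 16.7% of tested genes.

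CDKN2A (ENSG00000147889, chromosome 9, 21967753 to 21995301, minus strand, GENCODE release 29 on GRCh38) showed the largest difference of the family. No count fell on it in any of the 3 SEM::mock libraries (0 each), against 2356, 1127 and 1357 counts in SEM::EGR3 replicates 1 to 3. These counts correspond to 151, 151 and 149 CPM, so the SEM::EGR3 libraries lay close together and far from SEM::mock. At a detection limit of 3 counts per SEM::mock library (0.538 CPM), the SEM::EGR3 mean of 151 ± 1.10 CPM (SD, n = 3) exceeded it at least 280-fold. This is given as a description, since the filter fixed the outcome of a test. In bulk RNA, fewer cells with a transcript and less of it per cell cannot be told apart. The limit covers counting error only. GENCODE lists 10 coding transcripts of CDKN2A with separate starts, and 8 of them overlap in their last exon. The 3′ counts therefore do not tell p16INK4a from ARF transcripts.

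CDKN2B (ENSG00000147883, chromosome 9, 22002903 to 22009363, minus strand), which encodes p15INK4b and lies beside CDKN2A, was likewise at 0 counts throughout SEM::mock. In SEM::EGR3 it had 9, 4 and 5 counts, a level of 0.555 ± 0.0212 CPM (SD, n = 3). Both INK4 genes of this locus were thus without a read in SEM::mock, but only CDKN2A was abundant in SEM::EGR3. The SEM::EGR3 level of CDKN2B was at least 1.03-fold above the SEM::mock detection limit, so hardly any size of difference could be shown at this depth. In a fit without the filter it would enter through its SEM::EGR3 counts alone, so no test is given for it.

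**Figure D1:**
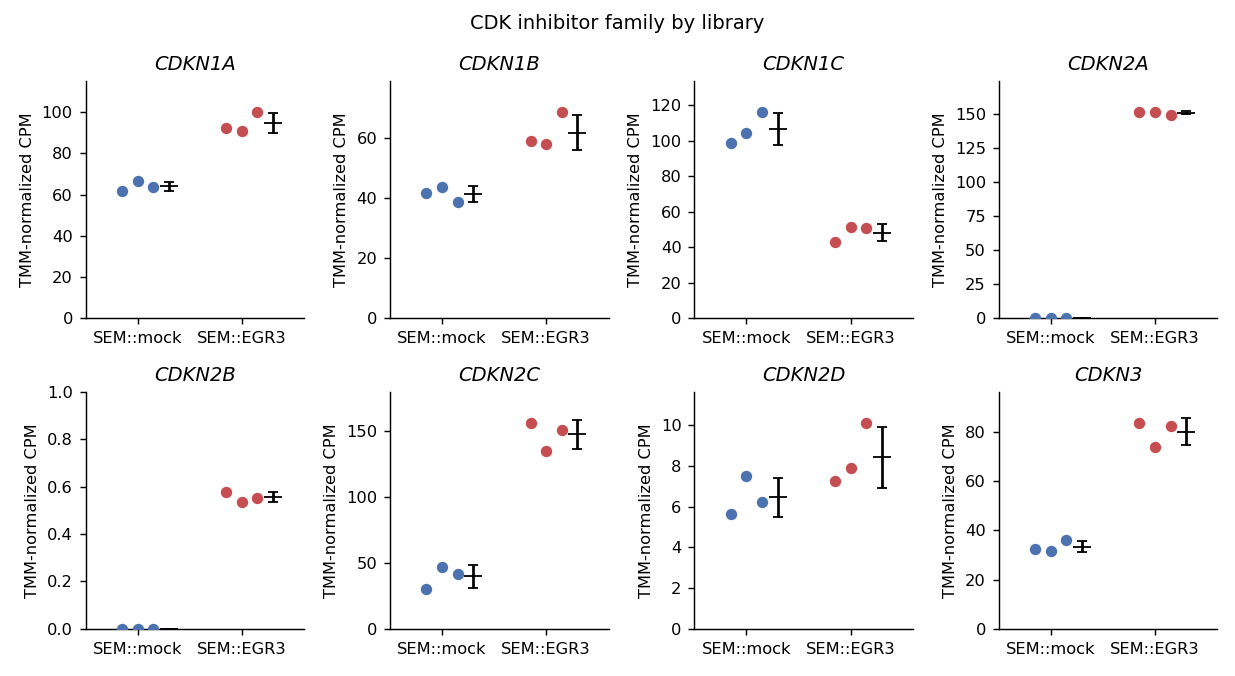
TMM-normalized CPM of each CDK inhibitor gene (vertical axes, from 0) in the 3 SEM::mock and 3 SEM::EGR3 libraries, with points for libraries and bars for mean and SD. CDKN2A and CDKN2B are at 0 in SEM::mock, CDKN1C alone is lower in SEM::EGR3 without overlap, and the points of CDKN2D overlap.

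CDKN2C (ENSG00000123080, chromosome 1, 50960745 to 50974633, plus strand) encodes p18INK4c, which restrains the expansion of lymphoid precursors and plasma cells. It had 30.6, 47.4 and 41.6 CPM in SEM::mock and 157, 135 and 151 CPM in SEM::EGR3. The lowest SEM::EGR3 library was far above the highest SEM::mock library, although SEM::mock replicate 1 was low within its line. The mean rose 3.72-fold, from 39.9 ± 8.51 to 148 ± 11.1 CPM (SD, n = 3 each). On the log2 scale the change was 1.89 (standard error 0.09, 95% interval 1.70 to 2.09, adjusted p = 4.38e-15, edgeR) and 90.4% of tested genes had a lower one. CDKN2D (ENSG00000129355, chromosome 19, 10566462 to 10569059, minus strand) encodes p19INK4d, the remaining INK4 protein. Its counts were low in both lines (32, 45 and 32 in SEM::mock, 113, 59 and 92 in SEM::EGR3), or 5.63, 7.51 and 6.25 CPM against 7.26, 7.92 and 10.1 CPM. The lines overlapped, since SEM::mock replicate 2 exceeded SEM::EGR3 replicate 1. The log2 fold change was 0.35 (standard error 0.18, 95% interval -0.02 to 0.73, adjusted p = 0.0901, edgeR), so an increase of up to 0.73 is compatible with these counts. It passed the threshold without SEM::EGR3 replicate 1 (log2 fold change 0.49, adjusted p = 0.0331) and without normalization factors (0.43, adjusted p = 0.0394), within a range of 0.0331 to 0.343 over all alternatives. Summed over the 4 INK4 genes, the level was 36.3 to 54.9 CPM in SEM::mock and 295 to 316 CPM in SEM::EGR3.

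Within the CIP/KIP group, CDKN1A and CDKN1B rose modestly and CDKN1C fell. CDKN1A (ENSG00000124762, chromosome 6, 36676460 to 36687339, plus strand) encodes p21, an inhibitor of CDK2 complexes. It had 62.0, 66.6 and 63.5 CPM in SEM::mock and 92.4, 91.1 and 100.1 CPM in SEM::EGR3, with no overlap. The 1.48-fold increase from 64.0 ± 2.35 to 94.5 ± 4.83 CPM (SD, n = 3 each) gave a log2 fold change of 0.56 (standard error 0.07, 95% interval 0.43 to 0.70, adjusted p = 4.59e-08, edgeR). The antisense transcript DINOL overlaps CDKN1A exons, but had only 0 counts in each SEM::mock library and 6, 7 and 1 in SEM::EGR3. CDKN1B (ENSG00000111276, chromosome 12, 12715058 to 12722371, plus strand) encodes p27, whose level is set largely by ubiquitin-dependent degradation. It had 41.5, 43.7 and 38.5 CPM in SEM::mock and 58.8, 57.8 and 68.6 CPM in SEM::EGR3, also without overlap. Its log2 fold change was 0.58 (standard error 0.08, 95% interval 0.41 to 0.74, adjusted p = 8.73e-07, edgeR), a 1.49-fold increase. AC008115.3, annotated within CDKN1B on the same strand, had at most 45 counts in any library.

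CDKN1C (ENSG00000129757, chromosome 11, 2883213 to 2885773, minus strand) encodes p57, an imprinted inhibitor that maintains quiescence of hematopoietic stem cells. It was the only member called lower in SEM::EGR3. It had 98.6, 104.6 and 116 CPM in SEM::mock and 42.7, 51.1 and 51.0 CPM in SEM::EGR3. Every SEM::mock library was above every SEM::EGR3 library, and the level was 2.23-fold higher in SEM::mock. The log2 fold change was -1.16 (standard error 0.08, 95% interval -1.32 to -0.997, adjusted p = 1.48e-12, edgeR), and 6.63% of tested genes had a lower one. A decrease by at least 1 was called for 8.5% of all tested genes. The summed CIP/KIP level overlapped between the lines, at 202 to 218 CPM in SEM::mock and 194 to 219.6 CPM in SEM::EGR3, with the fall of CDKN1C set against the increases of CDKN1A and CDKN1B.

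CDKN3 (ENSG00000100526, chromosome 14, 54396849 to 54420218, plus strand), the phosphatase, is known for a peak of expression in dividing cells. It had 32.4, 31.7 and 35.9 CPM in SEM::mock and 83.6, 73.7 and 82.4 CPM in SEM::EGR3. The libraries of the lines did not overlap, and SEM::EGR3 was 2.41-fold higher. The log2 fold change was 1.27 (standard error 0.08, 95% interval 1.11 to 1.43, adjusted p = 3.00e-13, edgeR). Values of proliferation genes are given beside it: of 20 tested, 8 were higher, 5 lower and 7 not called. Their median log2 fold change was 0.06 against 0.03 over all tested genes, of which 36.5% were higher and 32.0% lower. The largest increases in that list were those of AURKB (0.71, standard error 0.07), a mitotic kinase, and MCM2 (0.61, standard error 0.06), a subunit of the replicative helicase. Decreases were led by BUB1 (-0.67, standard error 0.06), a spindle checkpoint kinase, and MCM7 (-0.28, standard error 0.05).

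**Figure D2:**
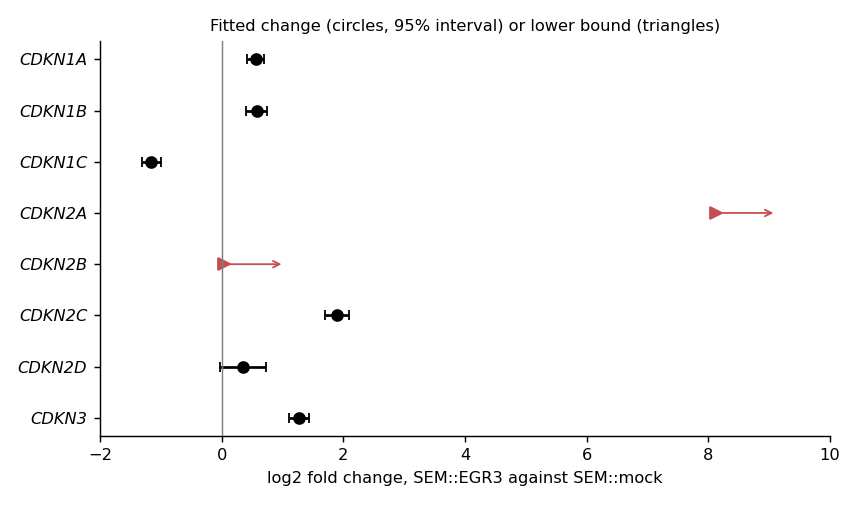
Log2 fold change of SEM::EGR3 against SEM::mock for each CDK inhibitor gene (horizontal axis), with 95% intervals for fitted values (circles) and lower bounds at 3 counts per SEM::mock library (triangles with arrows). CDKN1C lies at -1.16, the interval of CDKN2D reaches from -0.02 to 0.73, and CDKN2B has a bound near 0.

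The genes around CDKN2A on chromosome 9 were examined because CDKN2A and CDKN2B lacked reads together. The table lists 23 genes within 2 Mb of CDKN2A, and 7 of these, CDKN2A included, reached 10 counts in at least 1 library. On one side of it, FOCAD, KLHL9 and MTAP showed the same pattern. FOCAD (20658309 to 20995955) was counted 0, 1 and 0 times in SEM::mock but 168, 89 and 106 times in SEM::EGR3. The ratio was 190 with an exact counting interval of 33.9 to 7521. KLHL9 (21329671 to 21335380), a substrate adaptor of a CUL3 ubiquitin ligase, was at 0 throughout SEM::mock but reached 309, 128 and 166 counts in SEM::EGR3, which exceeded the detection limit at least 34.2-fold. MTAP (21802543 to 21937651), the methionine salvage enzyme next to CDKN2A, was counted 0, 0 and 1 times in SEM::mock but 380, 182 and 214 times in SEM::EGR3. Its ratio was 406 with a counting interval of 72.7 to 16060. Like CDKN2A, these genes passed the filter through SEM::EGR3 alone, so no test is given for them. Between FOCAD and CDKN2B, every listed gene was thus at 2 counts or fewer in each SEM::mock library, apart from CDKN2B-AS1. Apart from FOCAD, KLHL9, MTAP, CDKN2A, CDKN2B and CDKN2B-AS1, these genes were at 4 counts or fewer in each SEM::EGR3 library as well. They therefore do not separate the lines. The interferon genes among them were at 1 count or fewer in each SEM::EGR3 library.

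Other transcripts of the window were counted in SEM::mock. MLLT3 (20341665 to 20622543), which lies beyond FOCAD and is itself a fusion partner of KMT2A in leukemia, had more counts in SEM::mock (109, 108 and 106) than in SEM::EGR3 (70, 27 and 44; log2 fold change -2.13, standard error 0.15, adjusted p = 3.14e-12, edgeR). CDKN2B-AS1 (21994778 to 22121097, plus strand), the long noncoding RNA also called ANRIL, starts within CDKN2A, runs across CDKN2B and ends beyond it. Its counts reached 402, 475 and 316 for SEM::mock and 911, 452 and 621 for SEM::EGR3, and reads assigned to this gene were present in both lines (log2 fold change -0.19, standard error 0.08, adjusted p = 0.0448). Its 3′ end lies on the far side of CDKN2B from CDKN2A, and the position of reads within a gene is not given by the table. CLIC4P1, a pseudogene farther out, had between 2 and 10 counts in every library and was not tested. Without CDKN2A, whose lack of reads opened the window, 5 window genes had at least 10 counts in every SEM::EGR3 library, and 1 of these, KLHL9, had 0 counts in every SEM::mock library. In the whole table this held for 2.08% of such genes, and nothing is read from a single gene. The use of strand in counting is not given in the sources used here, so reads of CDKN2A and CDKN2B-AS1 in their shared exonic stretch cannot be told apart.

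**Figure D3:**
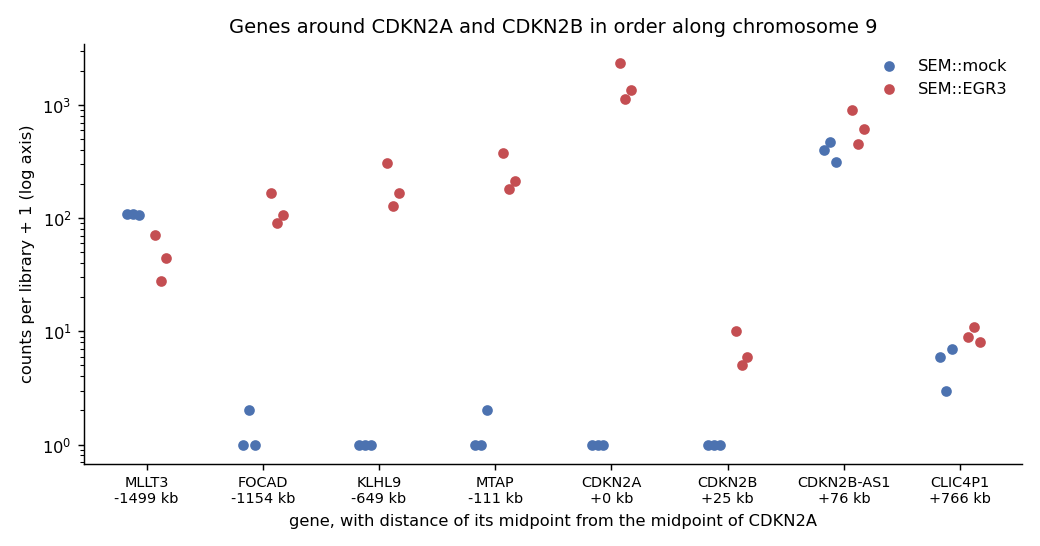
Counts per library plus 1 (vertical log axis) of CDKN2B and of the genes within 2 Mb of CDKN2A that reached 10 counts, ordered by the distance of their midpoints from CDKN2A. FOCAD, KLHL9, MTAP, CDKN2A and CDKN2B have 0 or 1 counts in the SEM::mock libraries, while MLLT3 and CDKN2B-AS1 have over 100 counts in each of them.

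For comparison, within 2 Mb of the other members, each member left out, the number of genes with 0 counts in SEM::mock and at least 10 in every SEM::EGR3 library was 0 of 25 for CDKN2C, 0 of 86 for CDKN2D, 1 of 43 for CDKN1A, 1 of 24 for CDKN1B, 1 of 30 for CDKN3 and 3 of 39 for CDKN1C. For CDKN2B it was 2 of 6, namely CDKN2A itself and KLHL9, already described. In the whole table this held for 2.08% of genes with at least 10 counts in every SEM::EGR3 library. For CDKN2C, 1 of 25 tested neighbors was higher and 15 were lower, so its own increase went against most of its surroundings (median log2 fold change -0.34). Around CDKN1C, 20 of 38 tested neighbors were higher and 8 lower (median 0.29), again opposite to the gene itself. Among all tested genes the shares were 36.5% higher and 32.0% lower, and no set of neighbors was tested.

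The kinases and cyclins that the inhibitors act on moved in both directions. Of 16 genes, 4 were higher, 7 lower and 5 not called, with a median log2 fold change of -0.10. The 4 include CCNA1, which passed the filter through SEM::EGR3 alone, so its call was fixed beforehand. Shares over all tested genes were 36.5% higher and 32.0% lower. Of the INK4 targets, CDK6 rose from 140.4 ± 9.56 to 318 ± 24.5 CPM (SD, n = 3 each; log2 fold change 1.18, standard error 0.06, adjusted p = 2.44e-14, edgeR). CDK4 fell from 256 ± 6.77 to 212 ± 6.17 CPM (log2 fold change -0.27, standard error 0.05, adjusted p = 8.74e-05). Among D-type cyclins, CCND1 fell most, at 126 ± 4.96 CPM in SEM::mock and 31.0 ± 0.741 CPM in SEM::EGR3 (SD, n = 3 each). Its log2 fold change was -2.03 with a standard error of 0.07 (adjusted p = 1.08e-18). CCND2 changed by -0.51 (standard error 0.06) and CCND3 by -0.19 (standard error 0.05), so all 3 D-type cyclin genes were lower in SEM::EGR3. CDK2, the main CIP/KIP target, changed by -0.56 (standard error 0.07). Its cyclins went apart, with CCNE1 at -0.99 (standard error 0.08) and CCNE2 at 0.83 (standard error 0.13). CCNA1, a cyclin of germ cells and some leukemias, was counted 0, 1 and 0 times in SEM::mock but 44, 23 and 41 times in SEM::EGR3, a ratio of 56.5 with a counting interval of 9.93 to 2252, also given without a test.

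Downstream of these kinases, 8 of 13 RB and E2F family genes were higher, 2 lower and 3 not called (median log2 fold change 0.28). Over all tested genes, 36.5% were higher and 32.0% lower. RB1 changed by 0.38 (standard error 0.09, adjusted p = 0.000376, edgeR). The largest increases were those of E2F7 (0.84, standard error 0.15), a repressor among the E2F factors, and RBL2 (0.76, standard error 0.09), the RB relative p130. Decreases were led by E2F2 (-0.31, standard error 0.09) and TFDP2 (-0.25, standard error 0.07). No called change in this list reached a log2 fold change of 1 in either direction.

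MDM2, the ligase that ARF blocks, had 104 ± 6.53 CPM in SEM::mock and 112 ± 2.77 CPM in SEM::EGR3 (SD, n = 3 each) and did not pass the threshold (log2 fold change 0.12, 95% interval -0.01 to 0.24, adjusted p = 0.0887, edgeR).

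**Figure D4:**
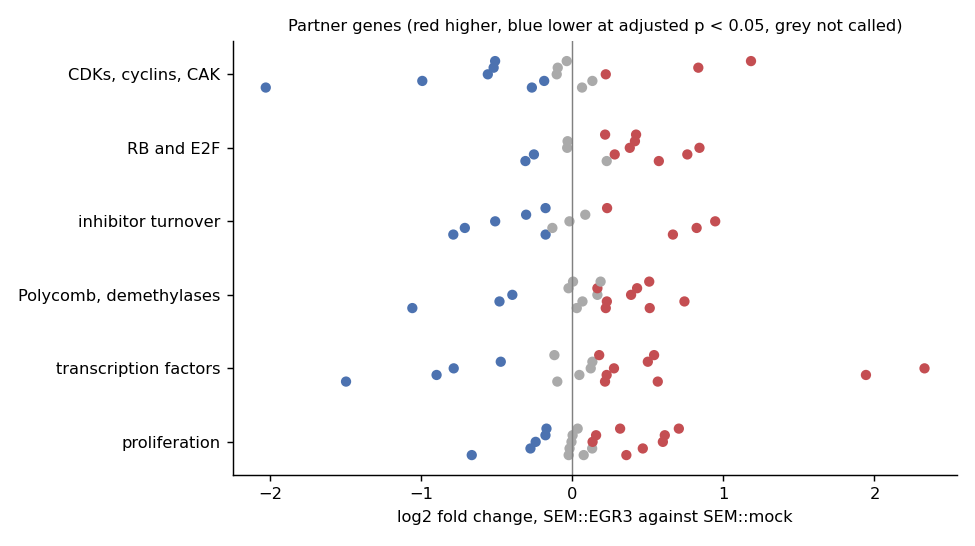
Log2 fold change of SEM::EGR3 against SEM::mock (horizontal axis) for genes of 6 lists of partners and regulators of CDK inhibitors, 1 point per gene, colored by the call at an adjusted p-value under 0.05; CCNA1 and ETS1, at 3 counts or fewer in each SEM::mock library, are left out. Every list has members on both sides, with CCND1 at -2.03 and ID2 at 2.33.

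Genes of inhibitor turnover were likewise mixed, with 4 of 13 higher, 6 lower and 3 not called (median log2 fold change -0.13). Over all tested genes, the shares were 36.5% higher and 32.0% lower. SKP2, the F-box protein that marks p27 for degradation, changed by -0.18 (standard error 0.07, adjusted p = 0.0297, edgeR), while its cofactor CKS1B did not pass the threshold (-0.13, 95% interval -0.28 to 0.02, adjusted p = 0.115). RNF123 and UBAC1 form a separate ligase for p27 and went in opposite directions, at 0.95 (standard error 0.10) and -0.71 (standard error 0.05). DDB1, part of the ligase that degrades p21 during replication, rose by 0.82 (standard error 0.05), and CUL4B of the same ligase family changed by -0.79 (standard error 0.06).

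Polycomb complexes keep the CDKN2A locus silent in many stem and progenitor cells. Of 17 genes for Polycomb subunits and histone demethylases, 8 were higher, 3 lower and 6 not called (median log2 fold change 0.17). Shares over all tested genes were 36.5% higher and 32.0% lower. The largest increases were those of KDM6B (0.74, standard error 0.10), a demethylase that removes the Polycomb mark, and PHC1 (0.51, standard error 0.15). Decreases were led by PCGF2 (-1.06, standard error 0.07) and RNF2 (-0.48, standard error 0.08), both subunits of the same complex. Of 19 transcription factors known to act on CDK inhibitor promoters, 10 were higher, 4 lower and 5 not called (median log2 fold change 0.18). The 10 include ETS1, which passed the filter through SEM::EGR3 alone, so its call was fixed beforehand. These counts also stand beside 36.5% higher and 32.0% lower over all tested genes. ETS1, an activator of CDKN2A, was counted 3, 1 and 1 times in SEM::mock but 85, 25 and 42 times in SEM::EGR3, a ratio of 15.9 with a counting interval of 6.67 to 49.7, given without a test. ID2 rose from 6.73 ± 0.278 to 34.1 ± 1.94 CPM (SD, n = 3 each; log2 fold change 2.33, standard error 0.12). SMAD3, which carries TGF-β signals to CDKN2B, fell from 50.6 ± 2.23 to 17.7 ± 1.46 CPM (log2 fold change -1.50, standard error 0.09), and TBX2, a repressor of CDKN2A, changed by -0.90 (standard error 0.30, adjusted p = 0.0101). The lists share themes with each other, and none of these counts is a test of a list.

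For each tested member, genes with the most similar profile over the 6 libraries were sought among 10136 genes with a mean of at least 10 CPM. The measure was the root mean square difference of log2(CPM + 1) after centering each gene. Closest to CDKN2A were IGHM (0.0598), PROM1 (0.0884) and PAX5 (0.114), which like CDKN2A were at or near 0 in SEM::mock. For such genes the measure depends almost entirely on the SEM::EGR3 level and the added 1 CPM, so these are genes of about equal level in SEM::EGR3. CDKN2C had AC022092.1 (0.0775), IL2RG (0.120) and SCARA3 (0.121) next to it, and CDKN1C had AP1S2 (0.0397), XAGE1B (0.0684) and MAP4K3-DT (0.0759). For CDKN3 the closest genes were CAMKK2 (0.0380), RAB8A (0.0510) and ABR (0.0517), for CDKN1A they were USP16 (0.0242), FAM174C (0.0281) and ACADM (0.0294), and for CDKN1B they were NUSAP1 (0.0289), TMPO-AS1 (0.0411) and CTDSPL2 (0.0412). CDKN2D was closest to LMCD1 (0.0759), MARCHF5 (0.0779) and SPATA5L1 (0.0871). Within 0.1 of CDKN1A lay 452 genes, of CDKN1B 197, of CDKN3 55, of CDKN1C 27, of CDKN2D 5, of CDKN2A 2 and of CDKN2C 1. Few genes thus lay near CDKN2C and CDKN2D, whose libraries scattered within a line. The SD was 21.35% of the SEM::mock mean for CDKN2C, and 14.8% (SEM::mock) and 17.8% (SEM::EGR3) for CDKN2D. Such scatter enters the measure, so few near genes need not mean an unusual change. Modest increases like that of CDKN1A were common in this comparison of 3 libraries with 3.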

How the data were processed

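MACE-Seq was run on 3 SEM::mock and 3 SEM::EGR3 samples. The table the authors deposited holds raw counts for each gene in each library, and per the labels bcl2fastq, Bowtie2, HTSeq and GRCh38 were used, with versions, annotation, strand setting and use of molecular identifiers not given in the sources used here. Column headings reading ERG3 were taken for SEM::EGR3, the single overexpressing line of the labels. The deposited rescaled values (12 columns), the columns of group values and the authors' own comparison (log2 fold changes with p-values and false discovery rates) were not used. No column was left unmatched to a sample.

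All 6 libraries were fitted with edgeR 4.0.16 in R 4.3.3 (filterByExpr, TMM, glmQLFit, glmQLFTest, Benjamini-Hochberg adjustment over 15465 genes). SEM::mock libraries were shallower, which limits low counts most in SEM::mock. Ratios for genes with few but not 0 counts in SEM::mock carry exact binomial intervals for counting error only. Standard errors were derived from the test statistic, intervals are 95%. Replicates of a line differed by more than counting noise (chi-square per degree of freedom 1.71 to 3.12). The procedure was tested on simulated data.

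The members and lists were chosen with earlier results of these data known. Named are all members, detected neighbors of CDKN2A within 2 Mb, main binding partners, and the 2 largest increases and 2 largest decreases called per list. The 3 closest profiles per member and leading or absent markers are also named. GENCODE release 29 held 97.0% of the gene identifiers. Alternatives were DESeq2 1.42.0, other normalizations, filters and tests, the replicate number as a term, each library left out, and other windows. Some genes, and 1 list of genes that holds such a gene, are not reported here.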

Additional observations from a re-analysis of the deposited data

How the results depend on the processing

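Without CDKN2A, whose outcome the filter fixed, 4 members were higher and 1 lower, and no call of a member changed with the replicate block. Same-numbered libraries did not deviate together (correlations of -0.25, -0.18 and -0.08 over 10136 genes), so the numbers were not taken as pairs. The log2 fold changes of CDKN1A, CDKN1B, CDKN1C, CDKN2C and CDKN3 kept their direction and call under all 13 alternative fits, over which CDKN2C ranged from 1.72 to 2.03 and CDKN1C from -1.23 to -1.05. With at least 10 counts in every library, CDKN2A was not tested. The count of genes higher within 2 Mb of CDKN2A then fell from 4 to 0, since such a filter removes genes absent from SEM::mock. The 4 were CDKN2A, FOCAD, KLHL9 and MTAP, which passed the main filter through SEM::EGR3 alone, so neither count is read as a result. Within 3 Mb of CDKN2A, 11 genes were higher, the same 4 among them. The number tested in that window is not given here, so this count cannot be set against the 36.5% higher over all tested genes. Transcription factor genes called lower numbered 2 with DESeq2. Proliferation genes called lower numbered 3 without normalization factors and 3 with at least 10 counts in every library. The cause of these changes was not tested. CDKN2D passed the threshold under 2 alternatives (values given with the gene). Depth in SEM::mock limits what can be said of CDKN2B.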
